A study of Papio anubis with 28 samples.

Results

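Regenerated bladder tissue was described here along the level of its urothelium, the epithelium that lines the bladder. The 9 libraries of regenerated tissue, of 28 in the series, were placed in order by UPK1A, a uroplakin gene, as log2(CPM + 1), where CPM is the gene's count scaled to the library's total count. The genes described were chosen by their measured rank correlation with that order, so the correlation itself is a description and not a test. RNA was sequenced from urinary bladder tissue of olive baboons (Papio anubis), all labelled WT, with 1 graft and 1 native bladder library from each animal. Regenerated tissue came from 5 animals of the SIS arm and 4 animals of the arm labelled PRS; both had a graft seeded with primary bone marrow cells, labelled as MSC (mesenchymal stromal cells) and CD34+ HSPC (haematopoietic stem and progenitor cells). Native bladder came from the same 5 SIS and 4 PRS animals and from 5 animals of the Entero arm, whose bladder carried an ileum graft and for which the labels name no cells. The 5 libraries of that ileum were used only to decide which genes had enough reads. SIS is the usual short name of small intestinal submucosa, a decellularised sheet of bowel matrix; the labels do not say what PRS means, how long after surgery tissue was taken or from where in the graft. Libraries of regenerated tissue are called SIS 1 to SIS 5 and PRS 1 to PRS 4, by the replicate number in their titles.

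The urothelium has basal, intermediate and umbrella cells. Umbrella cells face the urine and carry plaques of uroplakins, in which UPK1A pairs with UPK2 and UPK1B pairs with UPK3A. Below the epithelium lies a lamina propria of fibroblasts, collagen and vessels, and below that the detrusor, the smooth muscle that contains desmin (DES). In bulk tissue, fewer cells of a type and less RNA per cell cannot be told apart, so each level below is a share of the RNA of a whole piece of tissue.

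Uroplakin levels spanned a wide range over the 9 libraries. UPK1A was at 43.1 CPM in PRS 4, 58.8 in SIS 2, 118 in PRS 2, 215 in PRS 3, 747 in SIS 4, 886 in SIS 1, 919 in PRS 1, 1813 in SIS 5 and 2224 in SIS 3. These values rest on 1074 reads in PRS 4 and 70600 reads in SIS 3, in libraries of 23598232 to 31743317 counts. UPK2 ran in exactly the same order, at 10.3 CPM in PRS 4, 25.7 in SIS 2, 37.0 in PRS 2, 68.8 in PRS 3, 180.3 in SIS 4, 410.5 in SIS 1, 494 in PRS 1, 849 in SIS 5 and 1109 in SIS 3. Native bladder covered much the same range, with UPK1A between 62.3 and 2402 CPM (median 1020.5) over 14 libraries. The order mixed both arms, with PRS libraries at places 1, 3, 4 and 7.

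UPK1A did not rank the other epithelial genes in the same way. UPK3A was at 1155 CPM in PRS 4, 46.6 in SIS 2, 85.7 in PRS 2, 1154 in PRS 3, 1744 in SIS 4, 496 in SIS 1, 951 in PRS 1, 1671 in SIS 5 and 1444 in SIS 3. PRS 4 and PRS 3, which were low in UPK1A, were thus within the range of the UPK1A-rich libraries for UPK3A, while SIS 2 and PRS 2 were low in both. E-cadherin (CDH1), which joins epithelial cells, was at 432 CPM in PRS 4, 144 in SIS 2, 41.0 in PRS 2, 623 in PRS 3, 602 in SIS 4, 295 in SIS 1, 445 in PRS 1, 691 in SIS 5 and 584 in SIS 3. PRS 4 and PRS 3 were again among the high libraries, and PRS 2 was the lowest. EPCAM, a membrane protein of epithelial cells, was at 925 CPM in PRS 4 and 942 in PRS 3, above all other regenerated libraries (6.32 to 624 CPM). TP63, the transcription factor of basal cells, went the other way, at 10.6 CPM in PRS 4 and 13.0 in PRS 3, against 33.8 to 99.6 in the 5 libraries richest in UPK1A, and 4.41 and 5.75 in SIS 2 and PRS 2. UPK2, UPK1B and TP63 thus ran broadly with UPK1A, the gene that set the order, which is a description and not a test of the label. UPK1A-poor tissue was of more than 1 kind. SIS 2 and PRS 2 were the lowest libraries for CDH1, EPCAM, UPK3A and TP63, whereas PRS 4 and PRS 3 were rich in CDH1, EPCAM and UPK3A.

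**Figure D1:**
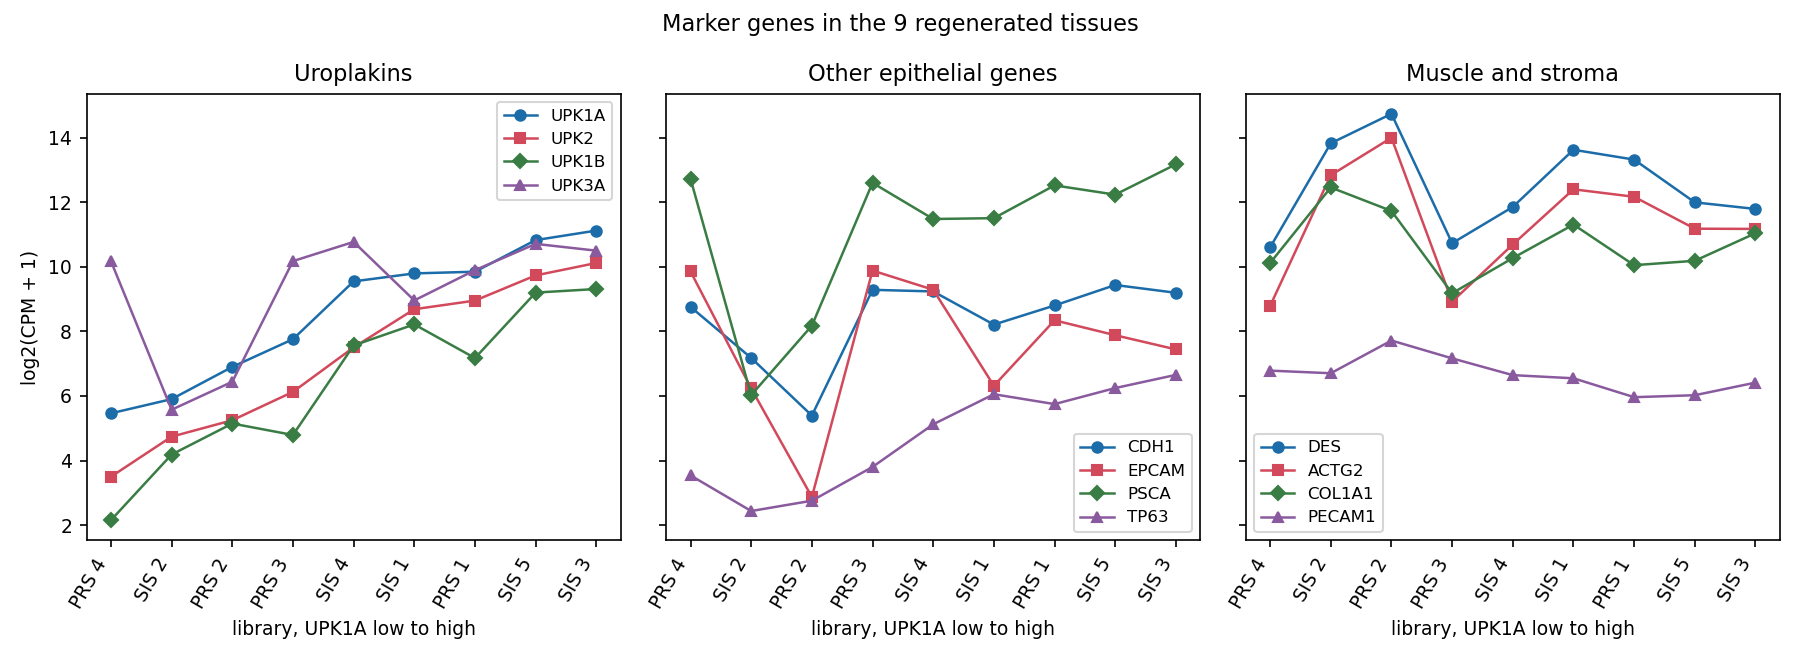
Levels of 12 marker genes, as log2(CPM + 1), in the 9 regenerated libraries placed from low to high UPK1A; each point is 1 library. UPK1A and UPK2 climb at every step and UPK1B climbs with dips at PRS 3 and PRS 1, whereas UPK3A, CDH1 and EPCAM dip at SIS 2 and PRS 2 and are high again at PRS 4 and PRS 3, where DES and ACTG2 are lowest.

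Over the 9 libraries Spearman's rho with UPK1A was 0.45 for UPK3A, 0.53 for CDH1, -0.05 for EPCAM and -0.03 for DES. Over the 14 native libraries the same values were 0.93, 0.79, 0.31 and -0.35. CDH1 and DES opposed each other in both tissues, with a rho of -0.63 in regenerated tissue and -0.74 in native bladder. All correlations along UPK1A are descriptions over 9 libraries that were ordered by a gene of the same count table, and genes share the depth of a library; they carry no p-value. Because PRS 4 and PRS 3 stood apart, results along the gradient are also given without them and with CDH1 as the ordering gene, 2 alternatives that were chosen after the data had been seen.

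Of 17176 genes with enough reads, 1134 had a rho of at least 0.8 with UPK1A (6.6%) and 72 had a rho of at most -0.8 (0.419%). They are called followers and opposers here. The median rho over all genes was 0.17, so values leaned to the positive side with total-count scaling. It was 0.18 with totals that left out mitochondrial genes. The cause of this lean was not tested. With TMM-scaled CPM (trimmed mean of M values, which adjusts for a few abundant genes) the median was 0 and the counts were 639 and 269. Without PRS 3 and PRS 4 there were 1860 followers (10.8%) and 360 opposers (2.1%). Of these, 867 and 48 were followers and opposers over all 9 libraries too. Without PRS 2 there were 244 opposers (1.42%). A rho of 0.8 is reached more easily with fewer libraries, so these counts are not on the same footing as those over 9. Just inside the bound 143 followers lay at exactly 0.80, and the nearest genes outside it lay at 0.79.

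Among genes with symbols and at least 1 CPM on average, UPK2 had the highest rho, and ADIPOR2, an adiponectin receptor, was among the next at 0.98. ADIPOR2 was at 20.7 CPM in PRS 4, 21.2 in SIS 2, 21.8 in PRS 2, 23.5 in PRS 3, 38.9 in SIS 4, 42.8 in SIS 1, 39.4 in PRS 1, 43.4 in SIS 5 and 51.9 in SIS 3. Its values fell into 4 libraries below 24 CPM and 5 above 38, which are the same 4 and 5 libraries as for UPK1A. MAL, a protein of apical membrane sorting, spanned 18.8 to 697 CPM, and VGLL1, a cofactor of TEAD transcription factors, spanned 3.77 to 123 CPM. STX6, a syntaxin of vesicle fusion, ranged from 6.30 to 20.7 CPM. DAG1, dystroglycan, which links cells to laminin, ranged from 50.1 to 197 CPM. XPR1, a phosphate exporter, spanned 8.54 to 27.7 CPM. The remaining genes of the 15 highest were KALRN, TMCC3, GPALPP1, PLCD1, ESPL1, COL4A3BP, USP46 and KIAA1045, with rho values of 0.97 or 0.98.

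Among the strongest opposers, OSMR, the receptor of the cytokine oncostatin M, was at 57.3 CPM in PRS 4, 195 in SIS 2, 36.3 in PRS 2, 32.7 in PRS 3, 24.9 in SIS 4, 20.6 in SIS 1, 19.0 in PRS 1, 18.8 in SIS 5 and 12.3 in SIS 3. It thus declined along the whole order except for the peak in SIS 2. ANGPT2, the angiopoietin that loosens vessel walls, was highest in SIS 2 (14.8 CPM) and lowest in PRS 1 (4.09 CPM). TGFB3, a growth factor of the TGF-beta family, ranged from 18.9 CPM in SIS 5 to 88.2 CPM in SIS 2, and STAB2, a scavenger receptor of sinusoidal endothelium, from 0.977 CPM in SIS 3 to 7.40 CPM in PRS 2. TXNRD1, thioredoxin reductase, ranged from 42.2 CPM in SIS 3 to 212 CPM in SIS 2. The others among the 15 lowest were NLGN3, KTN1, PALMD, CLECL1, PPIC, BACH2, GNAS, FBLIM1, GLIS3 and HECTD2, with rho between -0.98 and -0.88.

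A set of 30 gene lists was followed along the order, with 352 tested members. Taken over lists, 26 memberships were followers and 3 were opposers, beside 6.6% and 0.419% of all 17176 genes. The lists with a median rho of at least 0.5 were 6 lists of epithelium and its signals, and 1 list, mesothelium, was at or below -0.5. The other 23 lists lay between. The mesothelium median was -0.62 over 7 members, and -0.73 without PRS 2. It was -0.34 over members with a mean of at least 1 CPM, -0.37 with arm means removed and -0.46 with Pearson's r. The same count of lists past 0.5 in either direction was 7 over all 9 libraries, 12 when CDH1 set the order, 11 when UPK3A did and 13 without PRS 3 and PRS 4. The last count rests on fewer libraries, where rho is more variable.

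Genes of the umbrella cell followed UPK1A most closely, with a median rho of 0.84 over 8 members, 5 of them followers. The median was 0.575 in the order of CDH1 and 0.48 in that of UPK3A. UPK1B was at 3.45 CPM in PRS 4 and 634 CPM in SIS 3, with a median of 143 CPM over the 9 libraries. SNX31, a sorting nexin of umbrella cells that was named after its values had been seen, ranged from 3.41 CPM in SIS 2 to 260 CPM in SIS 3. PSCA, a surface protein of umbrella cells, did not follow the order, with 6755 CPM in PRS 4, 64.2 in SIS 2, 288 in PRS 2, 6194 in PRS 3 and 2851 to 9225 in the other 5 libraries. Only SIS 2 and PRS 2 were low in it, and its rho was 0.35 over 9 libraries and 0.96 without PRS 3 and PRS 4.

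Keratins and attachment genes of the urothelium had a median rho of 0.63 over 9 members, 4 of them followers. KRT7, a keratin of all urothelial layers, was at 556 CPM in PRS 4, 263 in SIS 2, 52.8 in PRS 2, 792 in PRS 3 and 883 to 1675 in the other 5 libraries. COL17A1, a hemidesmosome collagen of basal cells, ranged from 1.37 CPM in PRS 2 to 83.4 CPM in SIS 5. COL17A1 and KRT17 were named after their values had been seen. KRT17 was an exception with a rho of -0.28, at 190 CPM in SIS 2, 179 in PRS 3 and 0.772 in PRS 2. Among 11 epithelial transcription factors all had a positive rho (median 0.68) and 4 were followers. GATA3, which supports urothelial identity, ranged from 27.0 CPM in PRS 2 to 524 CPM in SIS 3 with a rho of 0.82, whereas ELF3 had a rho of 0.13 and its highest value, 1279 CPM, in PRS 3. Of 12 junction genes 9 had a positive rho (median 0.59). The desmosome gene DSP ranged from 58.6 CPM in PRS 2 to 995.5 CPM in SIS 5, with a rho of 0.85.

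Squamous genes had a median rho of 0.73 over 11 members, 3 of them followers. The median was 0.42 in the order of CDH1 and 0.38 in that of UPK3A, with 0 followers in each, and 0.48 with arm means removed. SPRR1B, a cornified envelope protein, was at 4.93 CPM in PRS 4 and 497 CPM in SIS 3. KRT4, a keratin of stratified mucosa, ranged from 1.47 CPM in PRS 2 to 813 CPM in SIS 5, and only SIS 5 was above 300 CPM. Signals between epithelium and stroma had a median of 0.52 over 13 members, all 13 with a positive rho (11 with TMM-scaled CPM); the median was 0.32 with TMM-scaled CPM and 0.03 when CDH1 set the order. WNT7B, a Wnt ligand of the urothelium, was at 38.7 CPM in PRS 4, 5.30 in SIS 2, 4.74 in PRS 2, 33.7 in PRS 3 and 73.5 to 124 in the other 5 libraries. PTCH1, the hedgehog receptor that is itself a hedgehog target, ran closer to UPK1A (rho 0.97), from 6.62 CPM in SIS 2 to 69.2 CPM in SIS 3. SHH, the ligand, had a rho of 0.63 and was lowest in PRS 2.

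Muscle did not follow UPK1A over the 9 libraries, but its level split the UPK1A-poor libraries. DES was at 1549 CPM in PRS 4, 14484 in SIS 2, 27260.4 in PRS 2, 1696 in PRS 3, 3695 in SIS 4, 12602 in SIS 1, 10203 in PRS 1, 4076 in SIS 5 and 3538 in SIS 3. The lowest and the highest DES values were thus both in libraries poor in UPK1A. ACTG2, the smooth muscle actin of viscera, was lowest in PRS 4 and PRS 3 (441 and 484 CPM) and highest in PRS 2 (16314 CPM), with a rho of 0.98 to DES. Summed over 20 contractile genes, levels ran from 5202 CPM in PRS 4 to 110099.5 CPM in PRS 2, against 4579 to 111615 CPM over the 14 native libraries. The contractile list had a median rho of 0.10 over all 9 libraries, with 15 of 20 members above 0 and none of them a follower or opposer. Without PRS 3 and PRS 4 the median was -0.50 with 1 of 20 members above 0, and in the orders of CDH1 and UPK3A it was -0.63 and -0.68, with 0 of 20 above 0 in each. DES itself had a rho of -0.75 without PRS 3 and PRS 4. Receptors and channels of contraction behaved in the same way, with medians of -0.01, -0.43 and -0.53 over 11 members. P2RX1, the ATP receptor of detrusor, was at 1079.9 CPM in PRS 2 and 5.20 to 248 CPM in the other 8 libraries.

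Stroma showed the same split. DCN, the proteoglycan of fibroblasts, was at 1278 CPM in PRS 4, 5967 in SIS 2, 3882 in PRS 2, 1034 in PRS 3, 1810 in SIS 4, 3877 in SIS 1, 1976 in PRS 1, 1236 in SIS 5 and 2784 in SIS 3. COL1A1, the main fibrillar collagen chain, was highest in SIS 2 (5612 CPM) and PRS 2 (3391 CPM) and lowest in PRS 3 (579 CPM). Along UPK1A the median rho was -0.02 for 13 fibroblast genes, -0.04 for 22 collagen and wound matrix genes, -0.04 for 10 elastic fibre genes and 0.03 for 10 basement membrane genes. None of these 4 lists held a follower or an opposer. Without PRS 3 and PRS 4 these medians were -0.50, -0.52, -0.55 and -0.57, and in the order of CDH1 they were -0.72, -0.62, -0.74 and -0.67. SIS 2 was high for matrix above all: SPARC, a matrix protein of wounds, was at 10476.5 CPM there and 896 to 3008 CPM in the other 8 libraries, and TNC, tenascin C, named after its values had been seen, reached 1278 CPM there with a median of 107 CPM over the 9 libraries. AGRN, a basement membrane gene that epithelium also makes, was low in SIS 2 and PRS 2 (146 and 101 CPM) and lay between 536 and 999.8 CPM in the other 7.

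**Figure D2:**
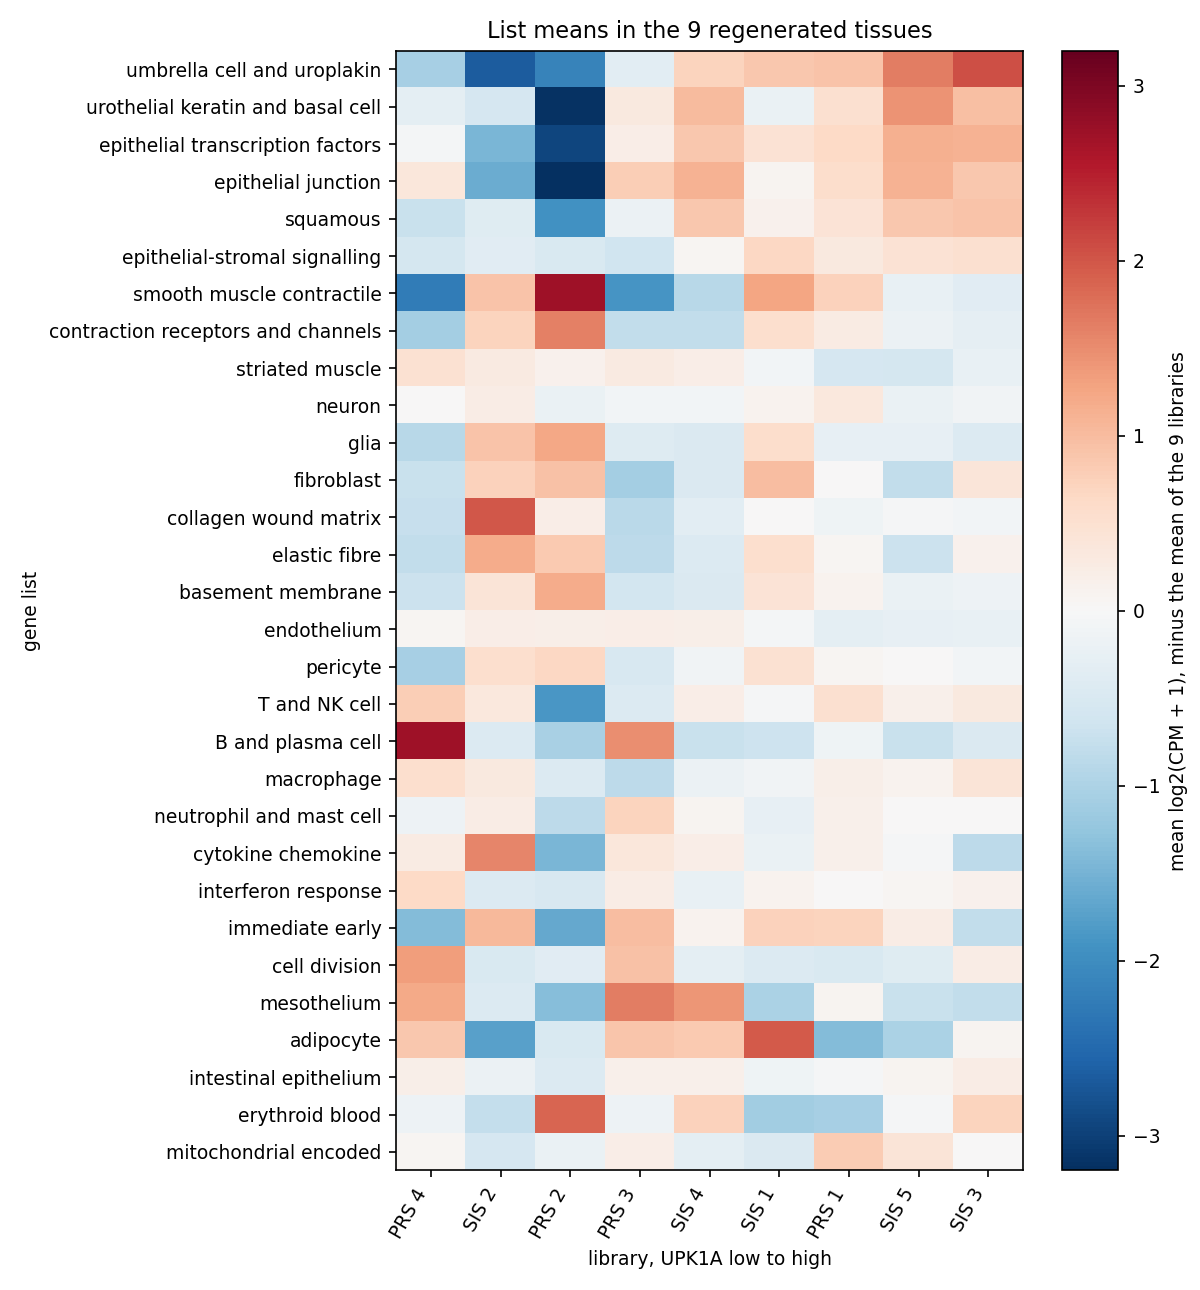
Mean log2(CPM + 1) of the tested members of each of the 30 lists in the 9 regenerated libraries, from low to high UPK1A, minus the mean of that list over the 9; red is above and blue below. The epithelial lists at the top are mostly blue on the left and red on the right, with the umbrella cell, transcription factor and junction lists deepest blue at SIS 2 and PRS 2, and the smooth muscle row is blue at PRS 4 and PRS 3 and red at SIS 2, PRS 2, SIS 1 and PRS 1.

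Vessel genes tended to run against UPK1A. Endothelial genes had a median rho of -0.43 over 18 members, 14 of them below 0, and the median was -0.52 with TMM-scaled CPM, -0.55 without PRS 3 and PRS 4 and -0.22 in the order of CDH1. PECAM1, an adhesion protein of endothelium, was at 109 CPM in PRS 4, 103 in SIS 2, 209 in PRS 2, 142 in PRS 3, 99.0 in SIS 4, 92.5 in SIS 1, 61.3 in PRS 1, 64.0 in SIS 5 and 84.2 in SIS 3. All 4 UPK1A-poor libraries were above the 5 others, and its rho of -0.80 lies exactly on the bound. VWF, the clotting factor stored by endothelium, was 133 to 227 CPM in the 4 libraries lowest in UPK1A and 60.5 to 156 CPM in the other 5. CDH5, the cadherin of endothelium, named after its values had been seen, was highest in SIS 2 (62.0 CPM) and lowest in PRS 1 (11.3 CPM). ESAM ran against its list, with a rho of 0.82 and values from 25.5 CPM in PRS 2 to 110.5 CPM in SIS 3. Summed endothelial levels spanned only 496 to 909 CPM, against 387 to 799 CPM in native bladder.

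Among genes of pericytes, the mural cells of small vessels, RGS5 went with muscle instead, and only RGS5 was set against DES. RGS5 was highest in SIS 2 (231 CPM) and lowest in PRS 3 (22.99 CPM), and its rho to DES was 0.97. The pericyte list had a median rho of 0.03 with UPK1A, which was -0.39 without PRS 3 and PRS 4. In the order of CDH1 the median was -0.63, with 3 of 9 members above 0. NOTCH3, also a member, ran with UPK1A, with a rho of 0.92 and values from 43.6 CPM in SIS 2 to 294 CPM in SIS 3. Glial genes had a median of -0.15, or -0.54 without PRS 3 and PRS 4; NCAM1 was at 71.2 and 63.1 CPM in SIS 2 and PRS 2 and 5.30 to 19.6 CPM in the other 7. Neuronal genes had a median of 0.03, with 1 opposer among 11.

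Immune and inflammatory lists had medians nearer to 0 than the epithelial lists over the 9 libraries. The median rho was 0.12 for 15 T and NK cell genes (-0.10 with TMM-scaled CPM), -0.04 for 17 macrophage genes, 0.36 for 8 neutrophil and mast cell genes, 0.06 for 12 interferon response genes (-0.13 with TMM-scaled CPM) and -0.14 for 16 cytokines and chemokines. No member of these lists was a follower or an opposer over the 9 libraries. Without PRS 3 and PRS 4 the medians were 0.46 for T and NK cell genes, 0.07 for macrophage genes, 0.26 for neutrophil and mast cell genes, 0.45 for interferon response genes (10 of 12 above 0) and -0.12 for cytokines. In that setting 1 T and NK cell gene, 3 macrophage genes and 2 interferon response genes were followers, at a bound that is passed more easily with fewer libraries. In the order of CDH1 the medians were 0.28, -0.07, 0.32, 0.22 and 0.09 for the same lists. CD3E, part of the T cell receptor complex, ranged from 2.63 CPM in PRS 2 to 27.3 CPM in PRS 4. LYZ, lysozyme, which both macrophages and epithelia can make, was low in SIS 2 and PRS 2 (84.8 and 62.5 CPM) and lay between 402 and 1254 CPM in the other 7 libraries. CD68, a lysosomal protein of macrophages, was highest in SIS 2 (22.7 CPM) and PRS 4 (19.6 CPM) and 6.67 to 11.97 CPM in the other 7.

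Acute cytokines were high in 1 library. IL6 was at 496 CPM in SIS 2 and 0.472 to 7.68 CPM in the other 8, against 0.101 to 4.41 CPM in native bladder. IL8, a neutrophil chemokine (now CXCL8), was at 417 CPM in SIS 2, 39.8 in SIS 4, 29.7 in PRS 1 and 0.347 to 9.18 in the other 6. CCL2, a monocyte chemokine, was at 990.0 CPM in SIS 2 and 5.10 to 26.1 CPM in the other 8. PTGS2, the inducible cyclooxygenase, was at 523 CPM in SIS 2 and 4.37 to 37.8 CPM in the other 8. PRS 2, which was also low in CDH1, EPCAM and UPK3A, was at 1.23 CPM for IL6, 0.877 for IL8, 9.02 for CCL2 and 16.1 for PTGS2. IL1A had its highest values elsewhere, at 258 CPM in SIS 1 and 253 in SIS 5, against 65.2 in SIS 2, and its rho was 0.77. Immediate early genes, which respond within minutes to stress and handling, had a median rho of 0.15 and their summed level ran from 1278 CPM in PRS 2 to 10849.7 CPM in PRS 3.

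**Figure D3:**
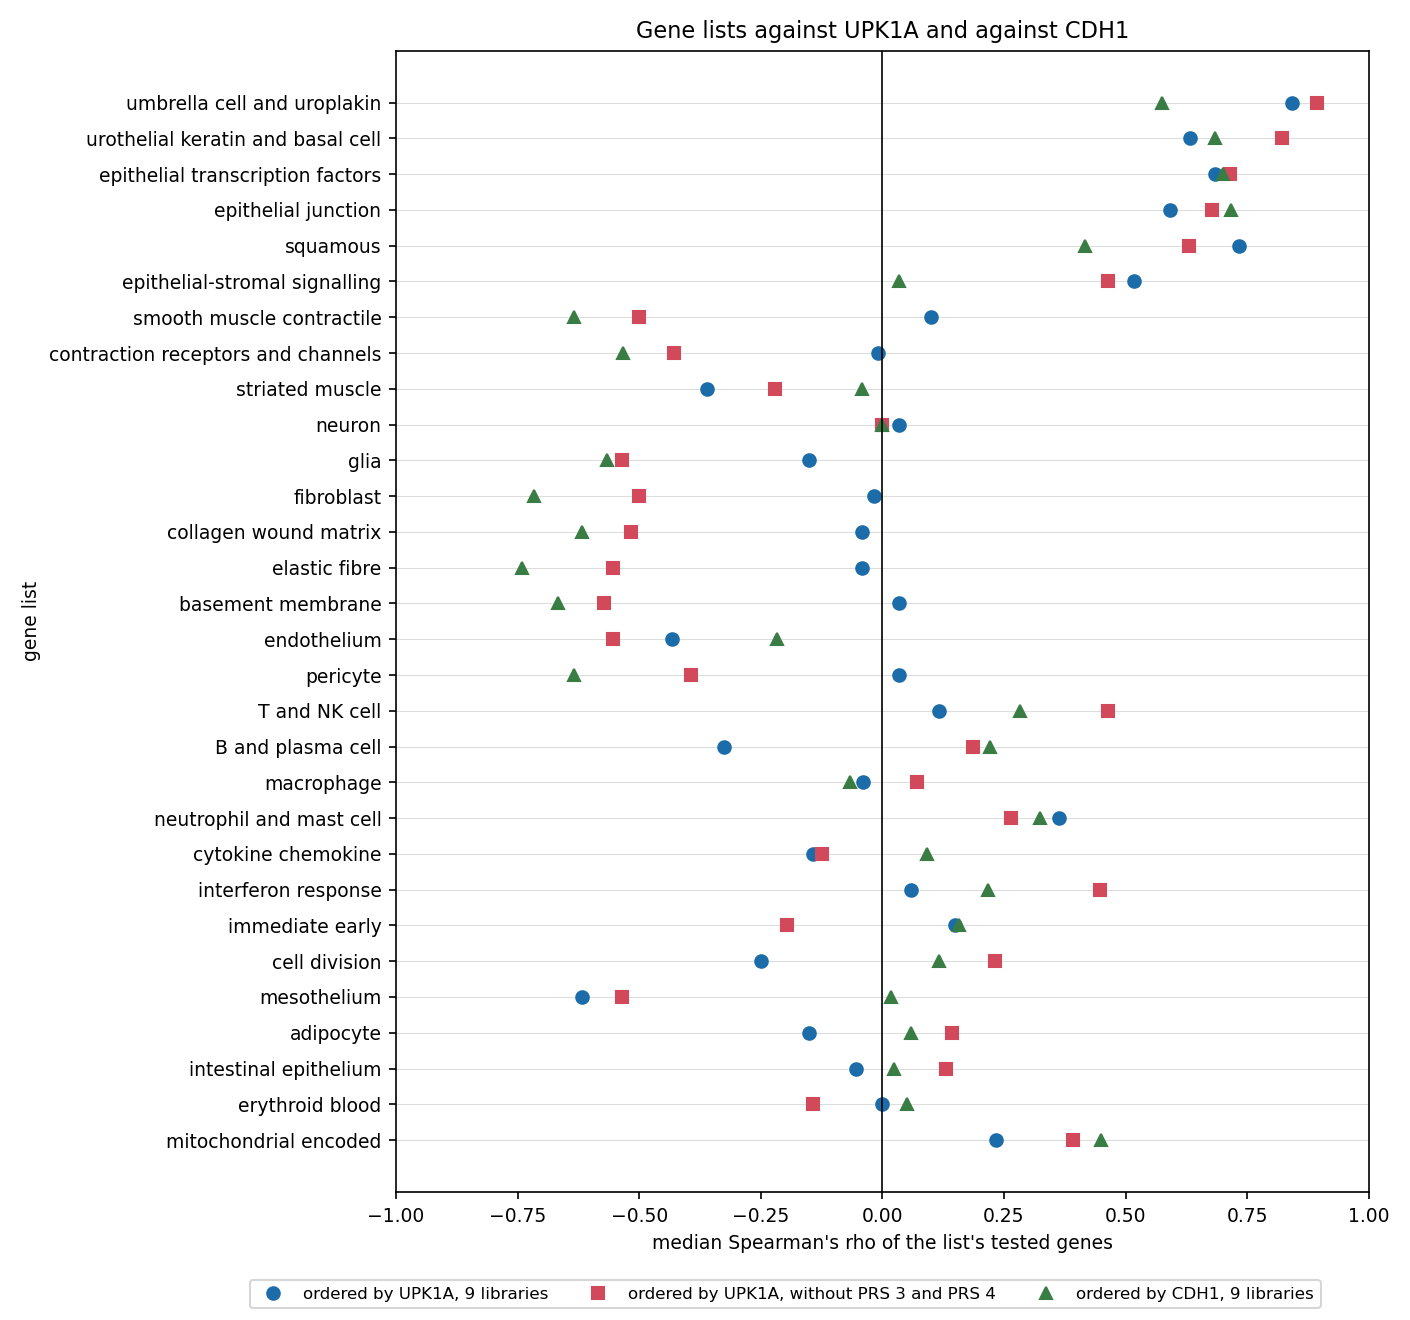
Median Spearman's rho of each list's tested genes with UPK1A over 9 libraries (circles), with UPK1A without PRS 3 and PRS 4 (squares), and with CDH1 over 9 libraries (triangles). The 6 epithelial lists at the top stay right of 0 in all 3 orders, whereas smooth muscle, fibroblast, matrix and pericyte lists move from about 0 to between -0.39 and -0.74.

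PRS 4 and PRS 3 carried a set of transcripts that UPK1A did not track. The genes of this paragraph were chosen after their values had been seen, apart from MS4A1, ITLN1 and the B cell list. FCGBP, a mucus protein of secretory epithelia, was at 28231 CPM in PRS 4, 20.1 in SIS 2, 1.72 in PRS 2, 42391 in PRS 3, 5814 in SIS 4, 6.83 in SIS 1, 1787 in PRS 1, 59.8 in SIS 5 and 144 in SIS 3. It made up 2.82% of all counts in PRS 4 and 4.24% in PRS 3, and its rho with UPK1A was -0.10. BPIFB1, a secreted protein of airway and other mucosae, was at 3900.2 CPM in PRS 4, 3799 in PRS 3, 334 in SIS 4 and at most 17.2 in the other 6. C4BPA, an inhibitor of complement, was at 1156 CPM in PRS 4, 1118 in PRS 3, 102 in SIS 4 and at most 5.39 in the other 6. TFF3, a trefoil peptide of mucus-secreting cells, was at 75.6 CPM in PRS 4, 40.4 in PRS 3, 0.358 in SIS 4 and had no read in the other 6, where a count of 0 allows up to 0.0945 to 0.127 CPM. ITLN1, intelectin, a lectin of mesothelium and of mucus-secreting cells, was at 3730.2 CPM in PRS 3, 193 in PRS 4 and 0.127 to 62.3 in the other 7. FCGBP was not foreign to native bladder. It was at 13158 CPM in the native library of PRS 4, at 5643 and 5124 in those of Entero 2 and Entero 1, and at 2.10 to 1134 in the other 11. Each native value lay below those of the PRS 4 and PRS 3 grafts. The mesothelium list, which holds ITLN1, summed to at most 606 CPM in any native library. The sample codes of PRS 3, PRS 4, SIS 4 and SIS 5 carry the letter M and those of the other 5 the letter F; the labels do not say what the letters mean, and their part in these values was not tested.

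B cell genes were high in the same libraries. MS4A1, the B cell antigen CD20, was at 25.2 CPM in PRS 4, 11.7 in PRS 3 and at most 0.932 in the other 7, with no read in PRS 2 and SIS 1, where the limit that a count of 0 allows is 0.105 and 0.110 CPM. Summed over 13 B and plasma cell genes the level was 1055 CPM in PRS 4, 286 in PRS 3 and 39.6 to 158 in the other 7, against 8.52 to 2533 CPM in native bladder. The native bladders of the same 2 animals were high too. As a mean of log2(CPM + 1), the list was at 6.61 in the native library of PRS 4 and 4.68 in that of PRS 3. It was 0.51 to 2.06 in the native libraries of the other SIS and PRS animals and 1.91 to 6.56 in those of Entero animals. None of the 13 had a rho above 0 with UPK1A (median -0.33, but 0.19 without PRS 3 and PRS 4). CXCL13, the chemokine of B cell follicles, named after its values had been seen, was at 119 CPM in PRS 4, 80.4 in PRS 3 and at most 3.64 in the other 7.

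**Figure D4:**
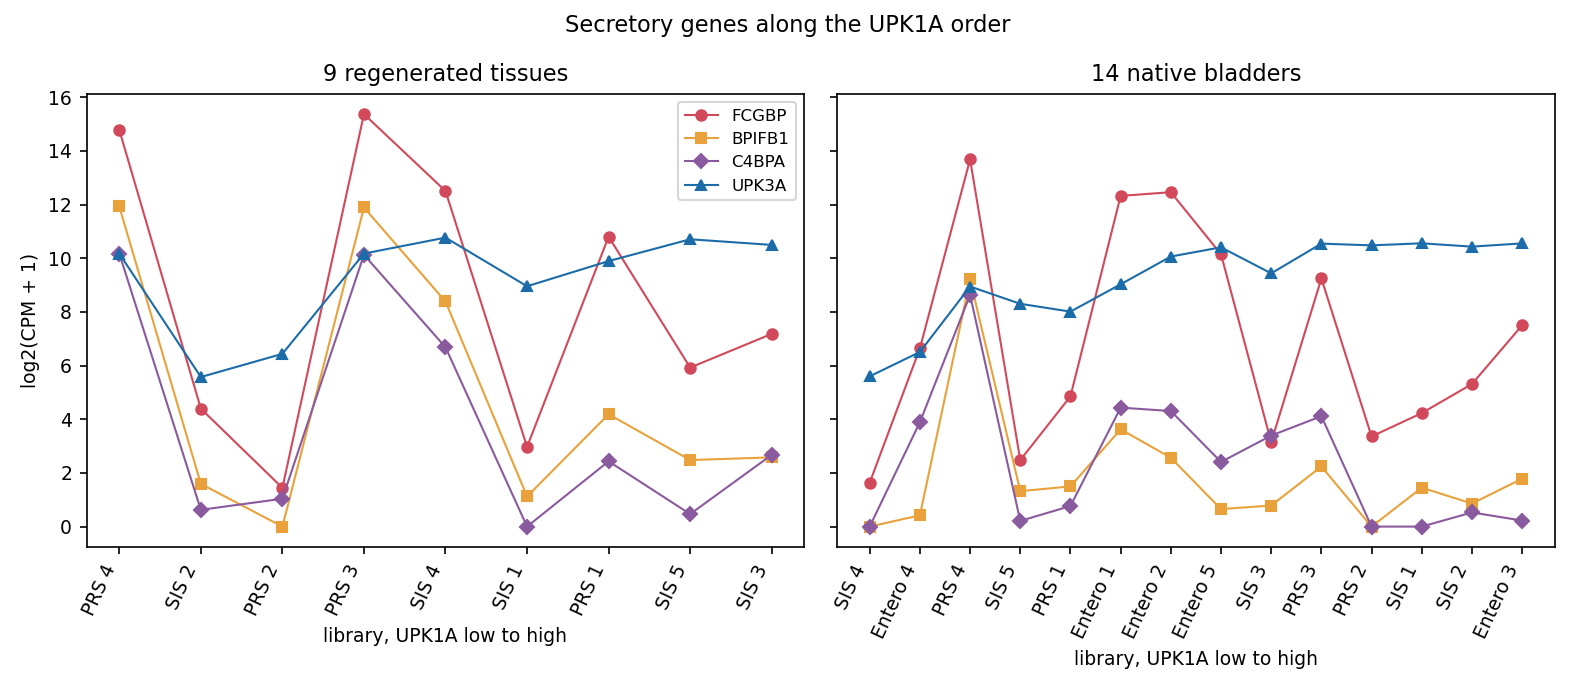
Levels of FCGBP, BPIFB1, C4BPA and UPK3A, as log2(CPM + 1), in the 9 regenerated libraries (left) and the 14 native bladders (right), each placed from low to high UPK1A. FCGBP, BPIFB1 and C4BPA peak at PRS 4, PRS 3 and SIS 4 in regenerated tissue and at PRS 4 in native bladder, and UPK3A is as high in PRS 4 and PRS 3 as in the UPK1A-rich libraries.

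Native bladder was tested for the same genes, since its libraries were not used to choose them; 9 of the 14 came from the animals with regenerated tissue. In a fit of 14 native libraries with the arm as a term, the slope of each gene on log2(CPM + 1) of UPK1A was tested with edgeR's quasi-likelihood test and Benjamini-Hochberg adjustment over all 17176 genes. A slope of 1 means that a gene doubles when UPK1A doubles. The slope was positive and called at an adjusted p under 0.05 for 1099 genes (6.4%) and negative for 307 (1.79%). Of the 1134 followers, 462 were called positive (40.7%) and 0 were called negative, with a median slope of 0.22 against -0.01 over all genes. Of the 72 opposers, 14 were called negative (19.4%) and 0 positive, with a median slope of -0.23. By sign alone, 1036 followers had a positive slope and 67 opposers a negative one, while 46.7% of all genes had a positive slope. In the native bladders of the 9 SIS and PRS animals alone, 213 followers were called positive (18.8%) and 0 opposers negative. Over all 17176 genes that subset gave 323 positive and only 14 negative calls. In the native bladders of the 5 Entero animals alone 0 of either were called (0 of all genes, 3441 at an unadjusted p under 0.05). Without the native library of PRS 4, 3622 genes were called in all, against 1406 with it, and without that of SIS 4 it was 593.

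**Figure D5:**
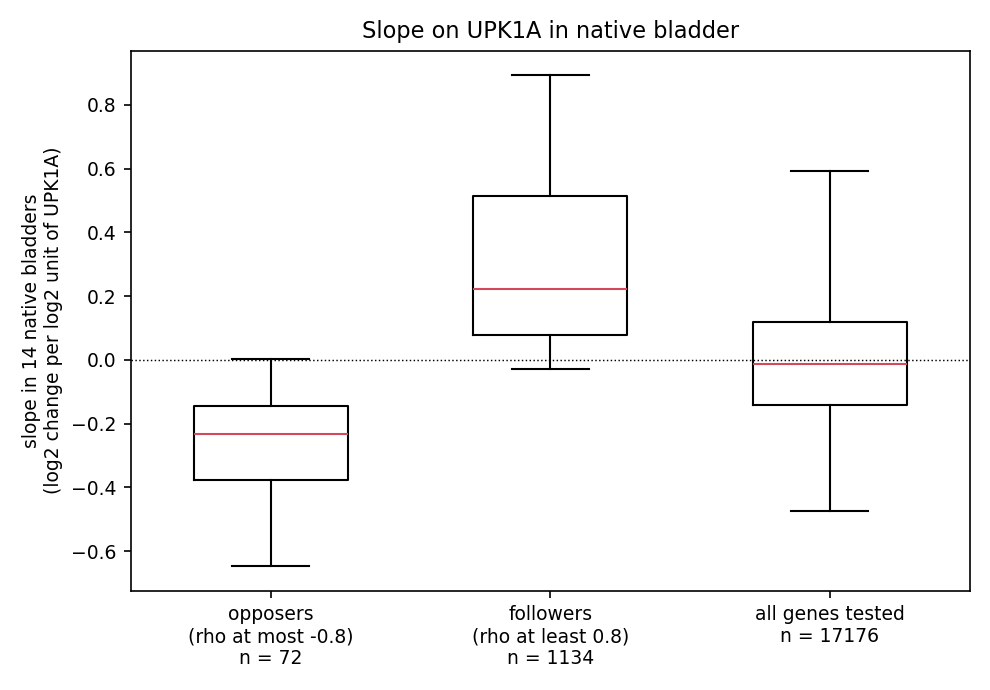
Slope of each gene on UPK1A over 14 native bladders, in log2 change per log2 unit of UPK1A, for the 72 opposers, the 1134 followers and all 17176 genes tested. Boxes span the quartiles with the median as a line and whiskers run from the 5th to the 95th percentile; the follower box lies above 0 and the opposer box below it.

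Mucosal genes carried most of the called slopes among the lists. In native bladder UPK2 increased with UPK1A at a slope of 0.98 (95% interval 0.83 to 1.12, adjusted p 2.15e-05), UPK1B at 0.99 (0.80 to 1.18, adjusted p 0.000189) and UPK3A at 0.81 (0.62 to 1.01, adjusted p 0.000531). CDH1 increased at 0.72 (0.43 to 1.00, adjusted p 0.00942). Positive slopes were called for 11 of 11 epithelial transcription factors, 6 of 8 umbrella cell genes, 8 of 12 junction genes, 4 of 9 keratin and attachment genes, 3 of 11 squamous genes and 3 of 13 signalling genes. Outside the epithelial lists, 8 of 14 immediate early genes were called positive, among them JUNB at 0.55 (0.32 to 0.78, adjusted p 0.0123). Of 20 contractile genes 0 were called in either direction; DES had a slope of -0.48 (-0.89 to -0.07, adjusted p 0.179). No fibroblast gene of 13 was called, and 1 of 22 collagen and wound matrix genes was called in each direction.

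Of 18 endothelial genes in native bladder, 4 were called negative and 1 positive, beside 1.79% negative and 6.4% positive over all genes, and 13 did not pass; CDH5 and SOX18 are named here after their values had been seen. Of 11 neuronal genes 4 were called negative and 0 positive, with a median slope of -0.72. PECAM1 decreased at a slope of -0.27 (-0.38 to -0.16, adjusted p 0.00996), CDH5 at -0.31 (-0.46 to -0.15, adjusted p 0.0322), VWF at -0.31 (-0.46 to -0.15, adjusted p 0.0285) and SOX18, a transcription factor of endothelium, at -0.27 (-0.38 to -0.16, adjusted p 0.0115). ESAM was the positive call at 0.27 (0.18 to 0.36, adjusted p 0.00308), the same sign as its rho in regenerated tissue. NOTCH3 of the pericyte list increased at 0.29 (0.16 to 0.41, adjusted p 0.0154). Among the strongest opposers, PALMD and HECTD2 were called, at -0.63 and -0.33, whereas OSMR was not (slope -0.25, adjusted p 0.0830).

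No gene passed the edgeR test of a difference in slope between the tissues. In a fit of 9 regenerated and 14 native libraries, the regenerated slope minus the native slope was called for 0 of 17176 genes (0%), with 1206 at an unadjusted p under 0.05 (7.02%), and DESeq2 called 11. The smallest adjusted p was 0.577, for AMPD3. The intervals were wide for single genes. UPK3A had a difference of -0.39 (95% interval -0.95 to 0.16), CDH1 of -0.49 (-0.94 to -0.04, adjusted p 0.701) and DES of 0.18 (-0.52 to 0.88). Cytokines had the most negative differences of the lists named here: their median was -0.57 over 16 members with 6 at an unadjusted p under 0.05, and it was -0.52 for immediate early genes, also with 6, of 14. IL6 and IL8 had differences of -1.28 (-2.29 to -0.28) and -1.30 (-2.30 to -0.30), where SIS 2 alone holds the high values. Leaving out PRS 1 from the regenerated tissue gave 38 calls and leaving out PRS 2 gave 4.

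At an equal level of UPK1A, no gene passed the edgeR test between regenerated tissue and native bladder. In a fit with 1 common slope on UPK1A, regenerated minus native tissue was called for 0 genes in the mean of both arms (0%), with 1466 at an unadjusted p under 0.05 (8.54%). Within the SIS arm 0 genes were called, with 1135 unadjusted (6.61%), and within the PRS arm 0, with 815 unadjusted (4.74%); DESeq2 called 121, 94 and 58. Without PRS 3, PRS 4 and the native library of PRS 4, edgeR called 0 in each. These fits did not pair the graft and native library of an animal. With the animal as a block in 18 SIS and PRS libraries, edgeR called 0 genes in the mean of both arms. There 2778 genes had an unadjusted p under 0.05, against 1059 in the same libraries without the block. In the fit without pairing, the median of regenerated minus native tissue over all genes was 0.03 on the log2 scale. List medians were 1.48 for immediate early genes (11 of 14 at an unadjusted p under 0.05) and 1.24 for mesothelial genes (3 of 7). They were 1.05 for junction genes (7 of 12), 1.03 for epithelial transcription factors (6 of 11) and 1.02 for keratin and attachment genes (3 of 9). They were 0.95 for cytokines (5 of 16) and -0.99 for contractile genes (0 of 20). The cytokine median was 1.80 in the SIS arm and 0.17 in the PRS arm, and SIS 2 had the highest IL6, IL8, CCL2 and PTGS2. Single values were 1.94 for FOS (0.89 to 2.99, adjusted p 0.469), 1.18 for CDH1 (0.23 to 2.13, adjusted p 0.545) and -1.11 for DES (-2.43 to 0.20, adjusted p 0.634). None of them passed the threshold.

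The place on the gradient was not shown to differ by arm. On the log2(CPM + 1) scale UPK1A averaged 7.49 ± 1.83 in PRS tissue (SD, n = 4) and 9.44 ± 2.09 in SIS tissue (SD, n = 5). The difference was -1.95, with p = 0.206 in a two-sided exact permutation test (adjusted p 0.310 over UPK1A, UPK2 and DES; the smallest p that 4 against 5 libraries allow is 0.0159). UPK2 averaged 5.96 ± 2.28 in PRS tissue and 8.15 ± 2.16 in SIS tissue, a difference of -2.20 with the same exact p of 0.206. DES averaged 12.34 ± 2.03 in PRS tissue and 12.62 ± 1.02 in SIS tissue, with an exact permutation p of 0.762. That last difference of -0.27 was 1.41 without PRS 3 and PRS 4. At equal UPK1A, 0 genes were called for PRS minus SIS tissue by edgeR (0%), with 1150 at an unadjusted p under 0.05 (6.7%), and 50 by DESeq2.

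The level of UPK1A in an animal's graft was not shown to go with that in its native bladder. UPK1A was higher in regenerated than in native tissue in 4 of 9 animals, and the mean difference was -0.89 ± 3.01 (SD) on the log2 scale. Across the 9 animals Pearson's r between regenerated and native UPK1A was -0.15 (exact permutation p 0.701, adjusted 0.775 over 3 genes) and Spearman's rho was -0.17 (exact permutation p 0.678). Without the 2 animals whose native value lay farthest from the median, SIS 4 and PRS 4, r was -0.64. For UPK2 r was 0.11 (exact permutation p 0.775) and rho -0.10 (exact permutation p 0.810), and r was -0.57 without the same 2 animals. For DES r was 0.47 (exact permutation p 0.198, adjusted 0.594) and rho 0.40 (exact permutation p 0.291), and r was -0.22 without PRS 4 and PRS 3, so that its sign rested on those animals. Each animal gave 1 library per tissue, and p-values measure the spread between animals.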

How the data were processed

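Gene counts of poly-A selected, paired-end RNA-seq were deposited by the authors as 1 table of raw, whole-number counts per gene; the submitters' processing notes name featureCounts 1.5.0-p3 together with HISAT2 2.0.5 and StringTie 1.3.3b. Neither the build nor the strandedness used in counting is named in the labels, so reads of overlapping and antisense genes, and of close paralogs, may be shared. Totals ran from 20975648 to 35669026 counts in the 28 libraries. Floors for counts of 0 (3 counts per library) cover counting error only. Intervals of slopes and differences came from the edgeR quasi-likelihood fits, so they also include the spread between libraries.

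The 9 regenerated libraries were ordered by log2(CPM + 1) of UPK1A, with CPM from raw column totals. Genes were kept by edgeR's filterByExpr (minimum count 10), 17177 of 27533. Spearman's rho used a bound of 0.8. Slopes and levels were fitted with edgeR 4.0.16 quasi-likelihood (TMM, Benjamini-Hochberg threshold 0.05) in R 4.3.3; DESeq2 1.42.0 was an alternative. Single genes were compared by exact permutation in scipy 1.17.1. The fits were tested on simulated data. The members, the 30 lists and the tests were chosen with earlier results of these data known. Named genes were the 15 highest and 15 lowest rho among genes with a symbol and a mean of at least 1 CPM, up to 4 abundant members of each list, and fixed markers; others are said to be chosen after their values were seen.

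Labels give regenerated and native tissue of an animal the same number. Same-animal deviations correlated at 0.191 to 0.706 in the PRS arm and -0.307 to 0.463 in the SIS arm.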

Additional observations from a re-analysis of the deposited data

Results flagged for a closer look

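Marker genes and list means were examined within the PRS grafts and within the SIS grafts, as 96 sets of values. In 10 of these sets, 1 library lay far from the others of its group. Chance gives about 1 in 20 for a single set. The sets share libraries and genes, so the 10 cannot be read against that rate. The measure is the gap to the nearest other library over the range of the group, on log2(CPM + 1). Among PRS grafts, PRS 2 was the lowest for UPK3A (0.925), CDH1 (0.864), the junction list (0.895) and the cytokine list (0.9). Among SIS grafts, SIS 2 was the highest for IL6 (0.723) and for the collagen and wound matrix list (0.852). SIS 2 was the lowest for the umbrella cell list (0.713) and the epithelial transcription factor list (0.74). SIS 3 was the highest for the cell division list (0.765) and SIS 4 for the mesothelium list (0.765).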

How the results depend on the processing

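The cause of each change below was not tested. Followers and opposers numbered 1134 and 72. Followers were 639 with TMM, 2077 at a bound of 0.7, 716 ordered by CDH1 and 1860 without PRS 3 and 4. Opposers were 269 with TMM, 202 at a bound of 0.7, 46 with Pearson's r, 44 with Pearson's r and a pseudocount of 0.1, 166 ordered by UPK3A, 260 by CDH1 and 360 without PRS 3 and 4. Of those ordered by CDH1, 77 followers and 0 opposers were shared with the order of UPK1A. Ordered by UPK3A, 94 followers and 0 opposers were shared. Lists past a median of 0.5 were 11 by UPK3A, 12 by CDH1 and 13 without PRS 3 and 4, against 7; the mesothelium median was 0.0167 by CDH1. Leaving out 1 library gave 814 to 1644 followers, 66 to 244 opposers (148 without PRS 4, 112 without SIS 2) and 5 to 9 lists. Runs with libraries left out kept the same bounds, which a rho passes more easily when libraries are fewer.

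Native slopes called 1406 genes, 2982 with DESeq2, 4243 on CDH1, 337 in 9 SIS and PRS natives, 0 in 5 Entero natives, and 593 (without SIS 4) to 3622 (without PRS 4) when 1 library was left out, with 2587 without PRS 2, 934 and 744 without Entero 3 and 4, and 909 without SIS 1. Followers called were 213 and 0 in those subsets and 274 to 588 with 1 library left out. Over all genes, positive calls were 323 and 0 in those subsets. They were 491 in the run with 274 followers and 1692 in that with 588. Opposers called were 26 with DESeq2, 0 in each subset and 5 to 24 with 1 library left out, with 8 without Entero 3 or SIS 1. Negative calls over all genes were 1151 with DESeq2 and 14 and 0 in those subsets. They were 77 in the run with 5 opposers and 895 in that with 24. The slope difference called 11 with DESeq2, 4 on CDH1 and 0 to 38 with 1 library left out. At equal UPK1A, DESeq2 called 121 in the mean, 94 for SIS, 58 for PRS and 50 for PRS minus SIS, while leaving out 1 library gave 0 each time with edgeR. With the animal as a replicate block in 18 SIS and PRS libraries, 0 genes were called for the slope difference and for each regenerated minus native level. No paired analysis was possible for PRS minus SIS because each animal belongs to 1 arm.

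Without 1 library, the PRS minus SIS difference was -2.83 to -1.27 for UPK1A, -3.198 to -1.38 for UPK2 and -1.07 to 0.31 for DES (0.27 without PRS 3, 0.31 without PRS 4, 0.03 without SIS 2); without PRS 3 and 4 it was 1.41 for DES. The r of graft with native tissue was -0.46 to 0.0051 for UPK1A (highest without SIS 2), -0.25 (without PRS 4) to 0.26 for UPK2 and 0.21 to 0.61 for DES; without PRS 3 and 4 it was -0.21 for UPK2 and -0.22 for DES. With 9 libraries, single genes rest on few places in the order.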

Other observations

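Mesothelial genes were not uniform along the order. UPK3B, a uroplakin of mesothelium and urothelium, had a rho of 0.88 with UPK1A in regenerated tissue and a native slope of 0.75 (edgeR, adjusted p 7.69e-05). MSLN, mesothelin, was at 108 CPM in PRS 4, 175 in PRS 3 and 329 in SIS 4, and 0.110 to 49.2 in the other 6 libraries. The cell division list had a median rho of -0.25, which was 0.12 in the order of CDH1 and 0.23 without PRS 3 and PRS 4.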
